A study of Mus musculus with 12 samples.

Results

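Growth hormone (GH) was given to mice that lack the transcription factor genes Stat5a and Stat5b, and skeletal muscle from 3 of these knockout mice with GH (KO+GH) was compared with muscle from 3 knockout mice without GH (KO). The 6 samples are those whose source names read KO+GH or KO, out of 12 samples in all. The other 6 are 3 wild-type mice without GH (WT) and 3 wild-type mice with GH (WT+GH), and they enter here as the background against which the knockout response is set. Each sample was hybridized to its own Affymetrix mouse expression array, and 45037 probe sets other than controls were measured on every array. Every array carries a different animal number in its title. The labels give no GH dose, no time after GH, no age, no sex, no strain, no name of the muscle and no Cre driver. They place the deletion in blood cells, whereas the Stat5 probe sets were low in the knockout muscle itself, as described below.

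GH binds its receptor on the cell surface and activates the receptor-bound kinase JAK2. JAK2 phosphorylates STAT5A and STAT5B, which enter the nucleus and switch on genes such as Igf1, Cish and Socs2, and it also feeds the MAP kinase, STAT3 and phosphoinositide 3-kinase pathways. The SOCS proteins made in response shut the receptor down again. In muscle, GH is known for promoting growth through locally made IGF-1 and for shifting the use of fat and sugar as fuel. The comparison of KO+GH with KO asks which part of the response to GH is still seen when the 2 Stat5 genes are deleted.

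The knockout was visible on the arrays. Stat5b read 497, 372 and 415 on the KO arrays and 333, 378 and 374 on the KO+GH arrays, against 2820.3 ± 162 on the WT arrays (mean ± SD, n = 3). Stat5a read 361, 232 and 170.0 on the KO arrays and 196, 129 and 159 on the KO+GH arrays, against 627 ± 90.5 on the WT arrays. Without GH, KO minus WT was -2.66 for Stat5b (adjusted p = 1.87e-09) and -1.27 for Stat5a (adjusted p = 0.00483). Here and below, a difference is on the scale of log2(signal + 25), and an adjusted p is from limma with Benjamini-Hochberg adjustment across the genes kept. A gene was called when it was under 0.05. With GH in the knockout, neither passed: the KO+GH minus KO difference was -0.54 ± 0.208 (SE, adjusted p = 0.0717) for Stat5a and -0.22 ± 0.107 (SE, adjusted p = 0.147) for Stat5b. The 2 probe sets of Stat5a ranged from -0.90 to -0.54. In 20 alternative settings of the processing, Stat5a passed in 6 and Stat5b in 1. Whether the probe sets lie inside the deleted exons is not given in the sources used here, so the remaining signal does not measure remaining protein.

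Signals were MAS5 intensities on a linear scale, which the authors had scaled so that the mean without the lowest and highest 2% was 500 on every array. GH and the handling of the arrays moved together. The poly-A control transcripts, which are spiked in before labelling, read 452 to 467 on the KO+GH arrays and 129 to 156 on the KO arrays, a 3.24-fold ratio. The median signal was 97.1 to 100.3 with GH and 79.2 to 92.3 without, and the ratio of the 3′ to the 5′ actin probe sets lay between 0.962 and 1.01 on the KO+GH arrays and between 0.812 and 0.864 on the KO arrays. Each of the 5 array measures compared separated the groups completely, and the exact permutation test, 2-sided, gave p = 0.1 for each, the smallest that 3 arrays against 3 allow. GH and the labelling batch therefore cannot be told apart. The 3 KO+GH arrays were also very alike: over the 4226 genes with a mean signal above 1000, the median SD of the log2 values was 0.0482 among them, against 0.113 among the KO arrays. The 18 hybridization control probe sets, which are added alike to every sample, had median SDs of 0.0437 and 0.126. In the WT arrays the genes and the controls had 0.134 and 0.166, and in the WT+GH arrays 0.0823 and 0.0870. In all 4 groups the spread of bright genes was thus near or below that of controls that carry no animal-to-animal difference, and p-values measure only the spread between these arrays. The spread was smallest in KO+GH. The gene and list counts from the fit by gene were therefore also taken with the 3 KO+GH arrays, and likewise the 3 WT+GH arrays, averaged to 1 array per group, an alternative added after seeing the data. It leaves every difference as it is, takes the spread from the KO and WT arrays alone, assumes that the averaged array varies like them and has 4 residual degrees of freedom in place of 8. Slow fibre genes also differed between the groups. Myh7, the slow myosin heavy chain, read 483 ± 564 in WT, 2658 ± 339 in WT+GH, 4048 ± 413 in KO and 4006 ± 85.5 in KO+GH (mean ± SD, n = 3 each), and the labels do not say which muscle was taken.

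GH in the knockout was followed by large rises in a small set of stress, feedback and growth-factor response genes and by smaller falls in genes of lipid synthesis. Falls in genes of energy metabolism were smaller still, and most of those in glycolysis were lost under quantile normalization. Of the 45037 probe sets, 3326 were higher with GH (7.39%) and 2660 were lower (5.91%). Taken by gene, with 1 probe set per gene and 12654 genes kept above a brightness minimum, 1130 genes were higher (8.93%) and 1948 were lower (15.4%), so that 36.7% of the 3078 called genes were higher. The larger changes leaned the other way: 239 genes were at least 2-fold higher and 142 at least 2-fold lower. Median centring of the arrays, described next, turned this to 171 higher and 298 lower. All 3 KO+GH values lay above all 3 KO values for 16.5% of the genes kept and below them for 27.9%, and for 1115 of the genes that rose and 1923 of those that fell. The median difference over all genes kept was -0.06.

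The balance of rises and falls depended on how the arrays were scaled. Centring each array on the median of all its probe sets moved the median by -0.18 and gave 643 genes higher and 4173 lower, 13.4% of calls higher. Centring on the median of the genes kept, added after seeing the data, gave 1359 higher and 1362 lower, 49.9% higher. Quantile normalization gave 1105 higher and 2014 lower. Averaging the GH arrays gave 179 genes higher and 100 lower, all of them among the genes called above.

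**Figure D1:**
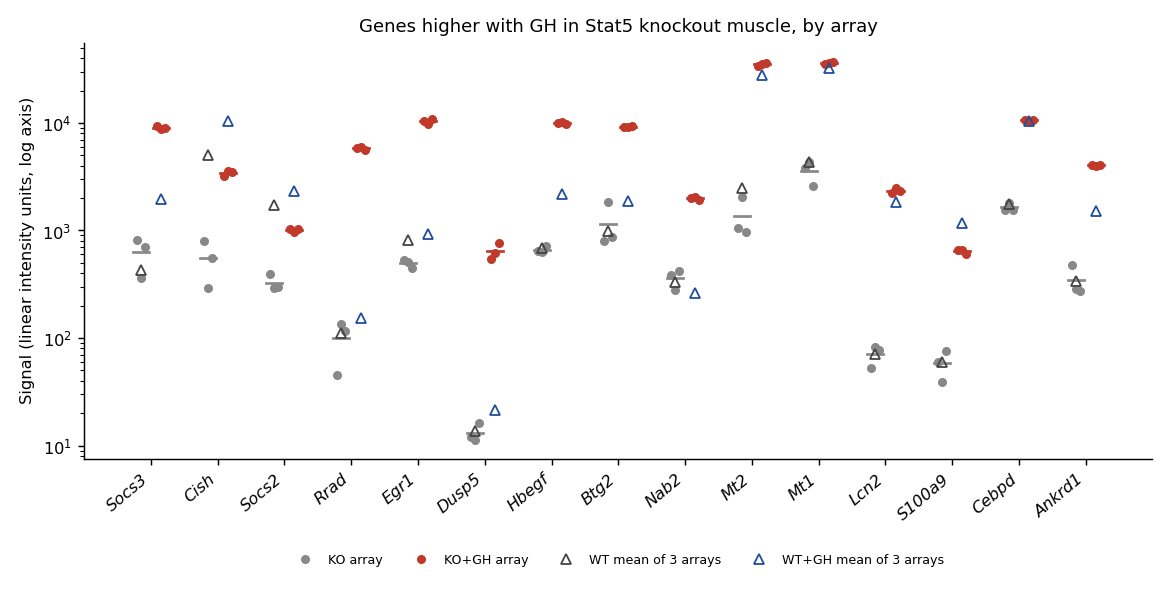
Signal of 15 genes that were higher with GH in the knockout, on a log axis in linear intensity units. Filled points are single arrays, grey for KO and red for KO+GH, with bars at the mean of 3 arrays, and open triangles are the means of the 3 WT (dark) and 3 WT+GH (blue) arrays. The KO+GH points lie above every KO point for all 15 genes, and for Rrad, Egr1, Dusp5 and Nab2 the WT+GH mean stays near the WT mean.

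Promoter sequences are shown for 4 of the strongest rises, chosen because each holds a match to a short motif. Which pathway raised each gene was not tested. The sequences are the 250 bases before the annotated start, from RefSeq on GRCm38.p6, written on the gene's own strand, with motif matches on either strand in capitals. Mt1 (chr8:94178839-94179088, plus strand) and Mt2 (chr8:94172368-94172617, plus strand) are metallothioneins, small metal-binding proteins. Capitals mark TGCNCNC, a loose form of the metal response core, with 1 match at Mt1 and 5 at Mt2. A match to this loose form need not be a metal response core. Socs3 (chr11:117969367-117969616, minus strand) holds 1 match to the STAT site TTCNNNGAA. Dusp5 (chr19:53528895-53529144, plus strand) holds 2 adjacent matches to the CArG box, the motif bound by serum response factor.
Mt1: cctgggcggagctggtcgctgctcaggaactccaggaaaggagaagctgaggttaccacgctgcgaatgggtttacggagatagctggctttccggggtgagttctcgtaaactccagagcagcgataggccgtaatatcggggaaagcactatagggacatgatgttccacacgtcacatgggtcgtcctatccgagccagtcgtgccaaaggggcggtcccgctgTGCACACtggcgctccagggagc
Mt2: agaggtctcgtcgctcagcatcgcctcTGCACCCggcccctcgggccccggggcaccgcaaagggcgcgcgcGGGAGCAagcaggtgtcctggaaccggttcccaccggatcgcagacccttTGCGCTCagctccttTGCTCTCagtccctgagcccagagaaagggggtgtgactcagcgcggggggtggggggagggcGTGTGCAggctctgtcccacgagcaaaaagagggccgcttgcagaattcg
Socs3: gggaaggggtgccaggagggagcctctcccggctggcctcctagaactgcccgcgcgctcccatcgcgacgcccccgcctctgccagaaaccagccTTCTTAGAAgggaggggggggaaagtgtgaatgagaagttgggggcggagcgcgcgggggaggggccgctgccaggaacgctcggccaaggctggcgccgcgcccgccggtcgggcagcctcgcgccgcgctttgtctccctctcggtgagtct
Dusp5: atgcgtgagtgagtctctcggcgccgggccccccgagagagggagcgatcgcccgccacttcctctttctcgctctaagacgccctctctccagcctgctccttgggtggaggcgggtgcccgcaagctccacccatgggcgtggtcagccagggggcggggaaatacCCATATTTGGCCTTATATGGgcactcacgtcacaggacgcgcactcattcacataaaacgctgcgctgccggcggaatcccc

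A match is a description of the sequence and not a measured binding site. The STAT site was in 7.02% of the table's 32851 promoters and 5.86% of those of the genes kept, against 6.36% for genes that rose and 5.71% for genes that fell. The loose metal response pattern was in 44.4% of all promoters and 52.8% of those of the genes kept, against 54.4% for genes that rose and 55.2% for genes that fell. CArG boxes were in 1.47% of all promoters and 1.21% of those of the genes kept, against 1.82% for genes that rose and 1.28% for genes that fell. Among genes that changed at least 2-fold, with 251 promoters of rises and 148 of falls, the STAT site was in 7.17% of rises and 4.73% of falls. The loose metal response pattern was in 50.6% and 59.5%, and the CArG box in 3.19% and 3.38%. Genes with a higher GH response in the knockout than in wild type had 102 promoters. The STAT site was in 4.90% of these, the loose metal response pattern in 56.9% and the CArG box in 0.98%, with Dusp5 as the 1 match. These shares are descriptions and were not tested.

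Feedback genes of the GH receptor rose strongly with GH in the knockout, where remaining STAT5 protein was not measured. Socs3, a SOCS inhibitor of JAK kinases that is best known as a STAT3 target, read 824, 361 and 699 on the KO arrays and 9369.6, 8871 and 8905 on the KO+GH arrays. The KO+GH values lay far above the KO values, and the difference was 3.87 ± 0.303 (SE, adjusted p = 5.98e-06), a rise of 14.6-fold on this scale, with 2.36 to 3.87 over its 3 probe sets. Cish, a classical STAT5 target and the founding SOCS member, read 799, 295 and 554 on the KO arrays and 3182, 3587 and 3474 on the KO+GH arrays. All 3 values with GH exceeded all 3 without, by 2.68 ± 0.461 (SE, adjusted p = 0.00297), but with the GH arrays averaged its adjusted p was 0.205, the highest of all alternatives, which otherwise ranged down to 4.62e-04. Socs2, the SOCS protein that restrains GH action in mice, read 396, 290.4 and 297 on the KO arrays and 1022, 966 and 1024 on the KO+GH arrays, again with no overlap and a difference of 1.56 ± 0.159 (SE, adjusted p = 7.96e-06). Both genes started low: without GH, KO minus WT was -2.29 for Socs2 (adjusted p = 1.74e-06) and -3.02 for Cish (adjusted p = 0.0134). Even with GH, the knockout means of 1004 for Socs2 and 3414 for Cish stayed below those of wild-type muscle without GH. The latter were 1724 ± 460 for Socs2 and 5006 ± 3337 for Cish (mean ± SD, n = 3). This comparison was not tested, and for Cish the gap lies within the wild-type SD.

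Among the 15 kept genes of a list of STAT5 targets and feedback genes, 7 rose and 3 fell with GH in the knockout, against 8.93% and 15.4% of all genes, with a median difference of 0.49. On averaging the GH arrays, 5 rose and 1 fell. Cdkn1a, a cell cycle inhibitor, rose by 1.999 ± 0.196 (SE, adjusted p = 7.28e-06). Ccnd1, which encodes cyclin D1 and drives the cell cycle, read 1397, 1221 and 1289 on the KO arrays and 401, 515 and 469 on the KO+GH arrays and fell by 1.45 ± 0.14 (SE, adjusted p = 4.25e-06). The same list in wild-type muscle had 5 rises and 3 falls.

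Igf1, the main growth mediator of GH, did not pass the test. It read 1458, 2676 and 1542 on the KO arrays and 1904, 2252 and 2513 on the KO+GH arrays, the groups overlapped, and the difference was 0.28 ± 0.196 (SE, adjusted p = 0.337). One KO array was well above the other 2, and the 4 Igf1 probe sets ranged from -0.35 to 0.44. Igfals, which encodes a carrier of circulating IGF-1, differed by 0.03 ± 0.197 (SE, adjusted p = 0.933). In the IGF system list, 3 of 14 kept genes rose and 3 fell, and none passed with the GH arrays averaged. Igf1r, the IGF-1 receptor, read 499, 491 and 503 on the KO arrays and 909.9, 823 and 816 on the KO+GH arrays and rose by 0.74 ± 0.103 (SE, adjusted p = 1.36e-04). Stc2, an inhibitor of the protease that frees IGF-1 from its binding proteins, rose by 1.05 ± 0.171 (SE, adjusted p = 4.88e-04). The binding protein gene Igfbp6 fell by 0.34 ± 0.066 (SE, adjusted p = 0.00179). Igfbp7 differed by -0.50 ± 0.101 (SE, adjusted p = 0.00237) at its brightest probe set, but by 0.05 over the mean of its 3 probe sets.

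The GH receptor itself did not pass the test. Ghr read 8263, 8730.0 and 9235 on the KO arrays and 7685, 7453 and 7476 on the KO+GH arrays, with no overlap and a small difference of -0.21 ± 0.0833 (SE, adjusted p = 0.0772). Its 3 probe sets ranged from -0.42 to -0.21. It passed in 5 of 20 alternative settings, among them the mean of all probe sets. In the list of GH receptor signalling, 6 of 21 kept genes rose and 2 fell, and 2 rose with the GH arrays averaged. The genes with the lowest p encode brakes on the pathway or another STAT. Ptpn1, a phosphatase that acts on JAK2 and the insulin receptor, read 1069.7, 1330.0 and 1159 on the KO arrays and 3608, 3501 and 3527 on the KO+GH arrays and rose by 1.56 ± 0.0899 (SE, adjusted p = 2.37e-08). Ptpn2, a related phosphatase of JAK and STAT proteins, read 1743, 1123 and 2076 on the KO arrays and 3983, 3947 and 4226 on the KO+GH arrays and rose by 1.33 ± 0.214 (SE, adjusted p = 7.23e-04), against -0.07 ± 0.214 (SE, adjusted p = 0.859) in wild-type muscle, but the interaction of 1.40 ± 0.303 (SE, adjusted p = 0.0528) did not pass. Sh2b3, an adaptor that restrains JAK2, rose by 0.55 ± 0.0922 (SE, adjusted p = 6.11e-04). Stat3 read 2052, 3518 and 3205 on the KO arrays and 5369, 5640.4 and 5544 on the KO+GH arrays and rose by 0.95 ± 0.143 (SE, adjusted p = 2.81e-04), but its 4 probe sets ranged from -0.03 to 0.95. Stat3 and Sh2b3 did not pass with the GH arrays averaged.

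Of 19 kept insulin signalling genes, 7 rose and 1 fell, and 1 rose with the GH arrays averaged. Without any 1 of the KO+GH arrays, 4 rose. Slc2a1, the basal glucose transporter GLUT1, read 298, 360.5 and 316 on the KO arrays and 1082, 1071 and 972 on the KO+GH arrays and rose by 1.61 ± 0.126 (SE, adjusted p = 4.60e-07). It rose less in wild-type muscle, by 0.55, and the difference between the genotypes was 1.06 ± 0.178 (SE, adjusted p = 0.00651). Pik3r1, the regulatory subunit of phosphoinositide 3-kinase that can restrain insulin signalling, rose by 0.60 ± 0.128 (SE, adjusted p = 0.00327). Ppp1r3c, which targets a phosphatase to glycogen, rose by 0.84 ± 0.17 (SE, adjusted p = 0.00275). Irs1, the insulin receptor substrate, read 4943, 4822 and 4825 on the KO arrays and 3358, 3332 and 3377 on the KO+GH arrays and fell by 0.53 ± 0.1 (SE, adjusted p = 0.00146). The last 3 did not pass with the GH arrays averaged.

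Immediate early genes, which switch on within minutes to hours of a growth factor signal, included the largest rise of all genes. Of 32 kept, 18 rose and 2 fell, with a median difference of 0.80 against 0.20 for the same genes in wild-type muscle. Averaging left 10 rises and no fall. The list and its members, like the other lists, were chosen with earlier results of these data known. Rrad, a small GTPase that binds calcium channel subunits, read 45.5, 136 and 116 on the KO arrays and 5850.2, 5916 and 5614 on the KO+GH arrays. The KO values were low and the KO+GH values nearly equal to each other, and the difference of 5.64 ± 0.267 (SE, adjusted p = 6.00e-09) was that largest rise. Egr1, a zinc finger factor induced through serum response factor, read 530.2, 509.5 and 449 on the KO arrays and 10488, 9689 and 10808 on the KO+GH arrays, a difference of 4.31 ± 0.136 (SE, adjusted p = 3.24e-11). Dusp5, a nuclear phosphatase of ERK whose promoter with 2 CArG boxes is shown above, read 12.04, 11.3 and 16.1 on the KO arrays and 543, 613 and 765 on the KO+GH arrays. Its KO signals lay below the constant of 25 added to every signal, so its difference of 4.11 ± 0.246 (SE, adjusted p = 3.39e-08) understates the ratio of the signals. Nab2, which binds and restrains EGR1, read 386, 279.9 and 423 on the KO arrays and 2019, 2053 and 1918 on the KO+GH arrays and rose by 2.40 ± 0.151 (SE, adjusted p = 5.42e-08).

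These 4 genes stayed close to their levels without GH in wild-type muscle. The WT+GH minus WT difference was 0.38 for Rrad, 0.22 for Egr1, 0.27 for Dusp5 and -0.31 for Nab2, and none of them passed there. The genotypes differed in the GH response by 5.25 ± 0.378 (SE, adjusted p = 4.24e-06) for Rrad and 4.10 ± 0.192 (SE, adjusted p = 1.77e-08) for Egr1. For Dusp5 the interaction was 3.84 ± 0.347 (SE, adjusted p = 1.78e-05), and for Nab2 it was 2.71 ± 0.213 (SE, adjusted p = 6.83e-06). The interactions of Rrad, Egr1 and Nab2 still passed with the GH arrays averaged, and that of Dusp5 did not. Not every immediate early gene took part. Fos, named after its values were seen, read 905, 1202 and 1124 on the KO arrays and 952, 1109.9 and 1149 on the KO+GH arrays, and the groups overlapped. Jun, chosen likewise, read 5237, 5694 and 4366 on the KO arrays and 5313, 5236 and 5294 on the KO+GH arrays, again with overlap.

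Other genes among the largest rises or interactions had varied roles. Hbegf, a membrane-bound ligand of the EGF receptor, read 640.4, 631 and 722 on the KO arrays and 10042, 10221 and 9732 on the KO+GH arrays and rose by 3.86 ± 0.132 (SE, adjusted p = 5.72e-11). Its rise in wild-type muscle was 1.64, and the genotypes differed by 2.23 ± 0.186 (SE, adjusted p = 8.88e-06). Dusp2, another nuclear MAP kinase phosphatase, read 136, 127 and 123 on the KO arrays and 912, 857 and 811 on the KO+GH arrays, and the genotypes differed by 2.31 ± 0.299 (SE, adjusted p = 8.47e-04). Sgms2, which makes sphingomyelin at the plasma membrane, read 58.8, 54.3 and 47.7 on the KO arrays and 647, 685 and 667 on the KO+GH arrays and differed in wild-type muscle by -0.04, with an interaction of 3.18 ± 0.28 (SE, adjusted p = 1.57e-05). Ankrd1, a muscle ankyrin repeat protein that responds to stretch and injury, read 473, 286 and 276 on the KO arrays and 4053, 3988 and 4042 on the KO+GH arrays and rose by 3.49 ± 0.163 (SE, adjusted p = 3.96e-09). Each of these interactions was lost with the GH arrays averaged, while the rises of all 4 within the knockout still passed.

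Acute phase genes and known targets of STAT3 rose in both genotypes. Of 18 kept, 11 rose and 1 fell in the knockout, with a median of 0.98, and 11 rose and 1 fell in wild-type muscle. Averaging left 6 rises. Lcn2, an iron-trapping defence protein, read 52.2, 82.7 and 76.99 on the KO arrays and 2224, 2466 and 2351 on the KO+GH arrays and rose by 4.65 ± 0.173 (SE, adjusted p = 1.54e-10), close to the 4.30 in wild-type muscle. S100a9, a calcium-binding alarm protein, read 59.8, 38.7 and 76.1 on the KO arrays and 652, 654 and 607 on the KO+GH arrays and rose by 3.02 ± 0.182 (SE, adjusted p = 3.48e-08). Cebpd, a transcription factor of the acute phase response, read 1550.3, 1818 and 1563 on the KO arrays and 10675, 10519 and 10538 on the KO+GH arrays and rose by 2.67 ± 0.0851 (SE, adjusted p = 3.24e-11), against 2.55 in wild-type muscle. Its 2 probe sets ranged from 0.35 to 2.67 in the knockout. Saa3, a serum amyloid made outside the liver, read 81.6, 98.5 and 83.6 on the KO arrays and 681, 822 and 802 on the KO+GH arrays and rose by 2.81 ± 0.222 (SE, adjusted p = 5.19e-07). It differed by 0.47 in wild-type muscle, where it did not pass, with an interaction of 2.34 ± 0.314 (SE, adjusted p = 0.00115) that was lost with the GH arrays averaged. Selp, the adhesion receptor P-selectin of activated endothelium and platelets, rose by 3.12 ± 0.346 (SE, adjusted p = 3.74e-05).

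S100a9 and Lcn2 are abundant in neutrophils, so neutrophil markers were read beside them. Of 15 markers, 12 had a probe set and 7 were kept, of which 1 rose and 2 fell, with a median difference of 0.46. The summed signal of the 12 was 692 to 900.4 on the KO arrays and 858 to 916 on the KO+GH arrays. Csf3r, the receptor for granulocyte colony-stimulating factor, read 19.1, 39.4 and 30.4 on the KO arrays and 77.2, 157 and 129 on the KO+GH arrays. Mmp8, a neutrophil collagenase too dim to be kept and named after its values were seen, read 3.17, 5.00 and 9.26 on the KO arrays and 86.0, 64.4 and 90.5 on the KO+GH arrays, with no overlap. For the other dim markers, Camp, Cxcr2, Elane and Stfa2l1, the groups overlapped. Mmp9, a granule protease, fell by 0.95 ± 0.174 (SE, adjusted p = 0.00124). Prtn3, another marker of the list, fell by 1.09 ± 0.362 (SE, adjusted p = 0.0391), a call lost in 9 of 19 alternative settings. In bulk tissue, fewer cells of a type and less RNA per cell cannot be told apart.

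The receptors through which interleukin-6 type cytokines reach STAT3 rose as well. Of 7 kept genes in that list, 5 rose and none fell, with a median of 0.72. Osmr, the oncostatin M receptor, read 419, 448 and 489 on the KO arrays and 1361, 1301 and 1283 on the KO+GH arrays and rose by 1.49 ± 0.102 (SE, adjusted p = 1.04e-07). Il6st, the shared signalling subunit gp130, rose by 0.65 ± 0.0804 (SE, adjusted p = 4.47e-05) at its brightest probe set, but its 4 probe sets ranged from -0.10 to 0.65. Il6ra, the interleukin-6 receptor, rose by 0.73 ± 0.143 (SE, adjusted p = 0.00201), and Lifr, the leukaemia inhibitory factor receptor, by 0.72 ± 0.149 (SE, adjusted p = 0.00292), with -0.06 to 0.72 over its 3 probe sets. Only Osmr passed with the GH arrays averaged.

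Genes known to respond to glucocorticoids rose in both genotypes. Of 20 kept, 13 rose and 3 fell in the knockout, with a median of 0.81, and 10 rose with the GH arrays averaged. In wild-type muscle 16 rose and 1 fell, with a median of 1.01. Fkbp5, a chaperone of the glucocorticoid receptor, read 861, 801 and 1021 on the KO arrays and 4692, 4435 and 4467 on the KO+GH arrays and rose by 2.32 ± 0.176 (SE, adjusted p = 5.39e-07). Its 3 probe sets ranged from 0.12 to 2.32. Ddit4, an inhibitor of mTORC1 also called REDD1, read 526, 985 and 615 on the KO arrays and 4665, 4884 and 4946 on the KO+GH arrays and rose by 2.78 ± 0.193 (SE, adjusted p = 3.54e-07), against 3.65 in wild-type muscle. Tgm2, a transglutaminase, read 3184, 3313 and 3987 on the KO arrays and 9524, 9549 and 9701 on the KO+GH arrays and rose by 1.46 ± 0.0862 (SE, adjusted p = 3.15e-08). Its 6 probe sets ranged from 0.21 to 1.67. Cebpd, given above, is in this list too. Klf15, a glucocorticoid-induced factor in muscle, did not pass in the knockout. It read 1413, 1101 and 1526 on the KO arrays and 1580.3, 1708 and 1582 on the KO+GH arrays, with no overlap and a difference of 0.28 ± 0.105 (SE, adjusted p = 0.0665), while it rose by 1.69 ± 0.105 (SE, adjusted p = 9.39e-08) in wild-type muscle. The interaction of -1.42 ± 0.148 (SE, adjusted p = 9.23e-05) was lost with the GH arrays averaged.

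Both main metallothioneins, which are induced by metals and by glucocorticoids, reached some of the highest signals on the arrays. Mt2 read 1063, 2047 and 976 on the KO arrays and 33976, 34924 and 36443 on the KO+GH arrays and rose by 4.74 ± 0.341 (SE, adjusted p = 8.46e-06), a change of 26.8-fold. Mt1 read 3833, 4369.6 and 2568 on the KO arrays and 34976, 35784 and 37149.9 on the KO+GH arrays and rose by 3.35 ± 0.284 (SE, adjusted p = 1.35e-05). Of 13 kept metallothionein and zinc transporter genes, 6 rose and 1 fell, and 4 rose with the GH arrays averaged. Slc39a14, which carries zinc and iron into cells and is induced by interleukin-6, read 444, 456 and 304 on the KO arrays and 1027, 1064 and 1069.5 on the KO+GH arrays and rose by 1.36 ± 0.155 (SE, adjusted p = 2.25e-05). Slc30a2, a zinc exporter into vesicles, rose by 1.26 ± 0.119 (SE, adjusted p = 3.47e-06). In wild-type muscle the differences were 3.61 for Mt2 and 2.98 for Mt1.

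Among 16 kept muscle atrophy genes, 7 rose and 3 fell, and 2 rose with the GH arrays averaged. Without KO replicate 1, KO+GH replicate 2 or KO+GH replicate 3, 1 of them fell. Foxo1, a transcription factor of the fasting and atrophy programme, read 775, 884 and 831 on the KO arrays and 1969.6, 1867 and 1817 on the KO+GH arrays and rose by 1.16 ± 0.128 (SE, adjusted p = 1.50e-05). Foxo3, its close relative, read 1287, 1318 and 1299 on the KO arrays and 2312, 2308 and 2307 on the KO+GH arrays and rose by 0.82 ± 0.0942 (SE, adjusted p = 2.51e-05), but its 3 probe sets ranged from -0.21 to 0.82. Musk, the receptor kinase that organises the neuromuscular junction, rose by 1.17 ± 0.158 (SE, adjusted p = 1.04e-04). Fbxo32, which encodes the ubiquitin ligase atrogin-1, moved the other way. It read 4234, 5134 and 4012 on the KO arrays and 2499.9, 2479 and 2408 on the KO+GH arrays and fell by 0.84 ± 0.112 (SE, adjusted p = 9.09e-05), while it differed by 0.15 in wild-type muscle, with an interaction of -0.99 ± 0.158 (SE, adjusted p = 0.00445). Neither the fall nor the interaction of Fbxo32 passed with the GH arrays averaged. Of 31 proteasome subunits, 11 fell and 2 rose, with a median of -0.12, none of them with the GH arrays averaged, and without KO+GH replicate 2, 7 fell. Without KO replicate 2 or KO+GH replicate 1, no subunit rose. Psmb2, a core subunit, read 6825, 6878 and 6839 on the KO arrays and 4729, 4798 and 4801 on the KO+GH arrays. Of 21 autophagy and lysosome genes, 3 fell and none rose, close to the share over all genes.

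**Figure D2:**
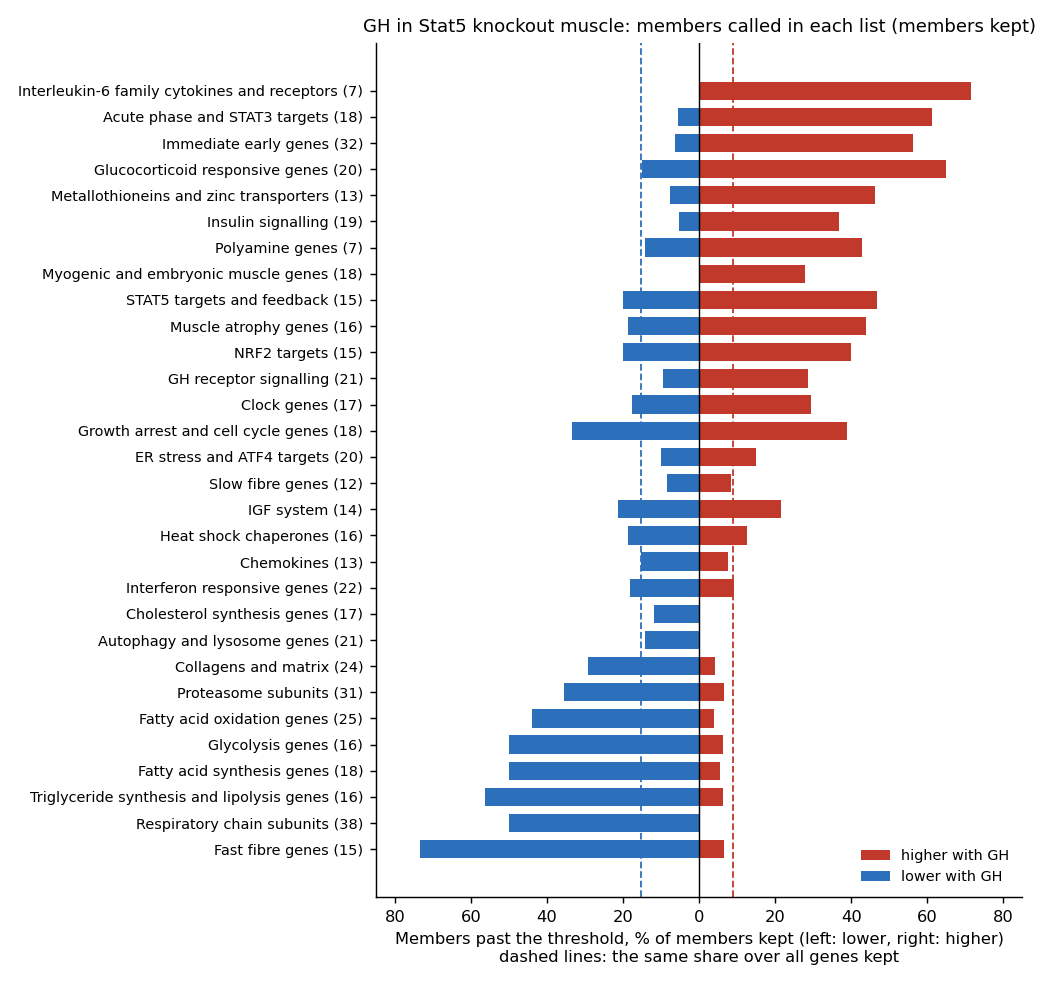
Share of the kept members of each pathway list that were higher (red, to the right) or lower (blue, to the left) with GH in the knockout, in percent, with the number kept in parentheses. Dashed lines mark the shares over all 12654 genes, 8.93% higher and 15.4% lower. Interleukin-6 family, acute phase, immediate early and glucocorticoid responsive genes lie farthest to the right, and fast fibre, respiratory chain and lipid lists farthest to the left. The lists and their members were chosen with earlier results of these data known.

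Lipid synthesis genes fell. Of 18 kept fatty acid synthesis genes, 9 fell and 1 rose, with a median of -0.62 that quantile normalization left at -0.63. In wild-type muscle 12 fell and 1 rose. Srebf1, the master regulator of this pathway, read 2921, 2510.2 and 2915 on the KO arrays and 1253, 1396 and 1390.4 on the KO+GH arrays and fell by 1.03 ± 0.0913 (SE, adjusted p = 1.82e-06). Scd1, which makes monounsaturated fatty acids, read 28634, 28861 and 23970.5 on the KO arrays and 14460.3, 14559 and 14569.5 on the KO+GH arrays and fell by 0.90 ± 0.111 (SE, adjusted p = 4.77e-05). Thrsp, a lipogenic factor, read 14960.2, 9433 and 9493 on the KO arrays and 6587, 6431 and 6526 on the KO+GH arrays, and Acss2, which makes acetyl-CoA from acetate, fell by 0.80 ± 0.149 (SE, adjusted p = 0.00143). Averaging the GH arrays left 2 falls. With the mean of all probe sets of a gene, 4 fell, and Thrsp and Acss2 were not among them.

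Of 16 kept genes of triglyceride synthesis and breakdown, 9 fell and 1 rose, with a median of -0.33, and 2 fell with the GH arrays averaged. Dgat2, which adds the last fatty acid to triglyceride, read 7947, 6689 and 7708 on the KO arrays and 4167, 4116 and 4175 on the KO+GH arrays and fell by 0.83 ± 0.084 (SE, adjusted p = 6.76e-06). Agpat2, an earlier step of the same route, read 3662, 2506 and 2165 on the KO arrays and 1175, 1199 and 1042 on the KO+GH arrays and fell by 1.24 ± 0.154 (SE, adjusted p = 5.56e-05). Plin2, a lipid droplet coat protein, fell by 0.94 ± 0.173 (SE, adjusted p = 0.00137). Dgat1 fell by 0.67 ± 0.114 (SE, adjusted p = 7.04e-04) at its brighter probe set, and its other probe set differed by 0.09. Of 17 cholesterol synthesis genes, 2 fell and none rose, near the share over all genes. Insig1, a sterol-sensing brake on SREBP, read 725, 739.8 and 569 on the KO arrays and 369, 334 and 348 on the KO+GH arrays and fell by 0.90 ± 0.136 (SE, adjusted p = 2.68e-04).

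Markers of fat cells moved with the lipid genes. Of 12 adipocyte markers kept, 6 fell and 1 rose, with a median of -0.74, and 2 fell with the GH arrays averaged. Their summed signal was 60343 to 99297 on the KO arrays and 56547 to 59517 on the KO+GH arrays, and the 3 KO arrays differed widely. Cebpa, a factor of fat cell differentiation, read 6355, 4404 and 3475 on the KO arrays and 1285, 1361 and 1524 on the KO+GH arrays and fell by 1.71 ± 0.154 (SE, adjusted p = 2.40e-06). Retn, which encodes the fat cell hormone resistin, read 4621, 3106 and 2655 on the KO arrays and 964, 1023 and 1125 on the KO+GH arrays and fell by 1.68 ± 0.158 (SE, adjusted p = 4.01e-06). Cidec, a lipid droplet protein, fell by 0.89 ± 0.129 (SE, adjusted p = 1.87e-04). Plin4, a droplet protein of both fat and muscle, went the other way: it read 6402, 6539 and 7253 on the KO arrays and 11996, 11744 and 12013 on the KO+GH arrays and rose by 0.82 ± 0.0749 (SE, adjusted p = 2.37e-06). Lipe, a lipase, is counted both here and among the triglyceride genes. The part of fat cells in the fall of the lipid genes was not tested.

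**Figure D3:**
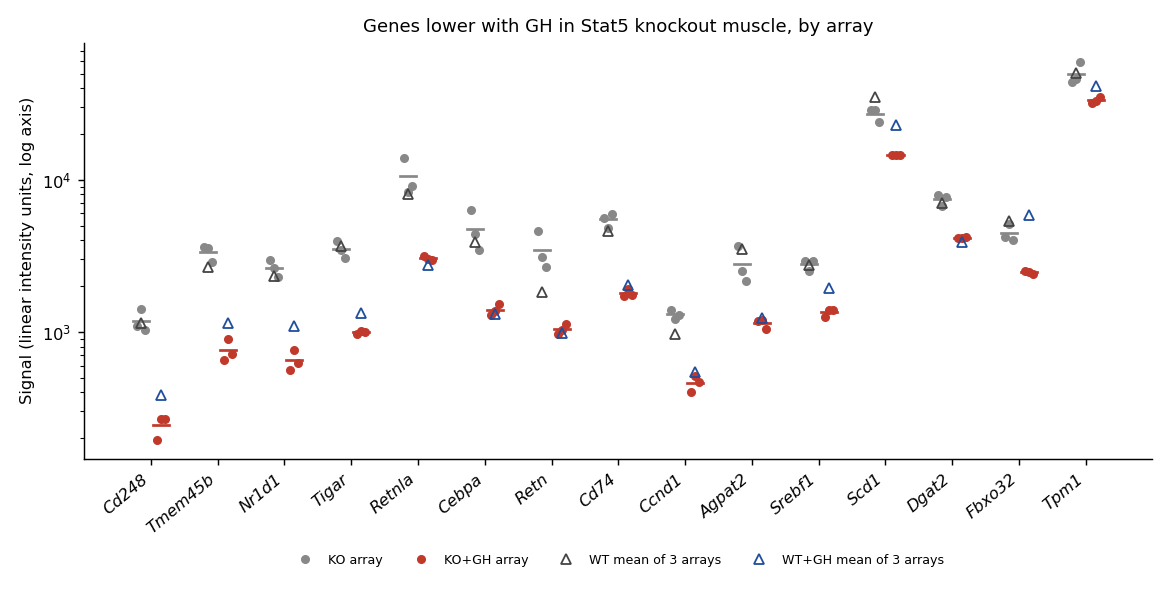
Signal of 15 genes that were lower with GH in the knockout, on a log axis in linear intensity units, with points, bars and triangles as in the plot of rises. Every KO+GH point lies below every KO point for all 15 genes. The WT+GH means lie below the WT means except for Fbxo32.

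The largest single falls were of mixed function. Cd248, a surface protein of pericytes and fibroblasts also called endosialin, read 1097, 1408 and 1031 on the KO arrays and 194, 267 and 269 on the KO+GH arrays and fell by 2.17 ± 0.148 (SE, adjusted p = 1.06e-07). Tmem45b, a transmembrane protein, read 3625, 3564 and 2859.9 on the KO arrays and 654, 894 and 712 on the KO+GH arrays and fell by 2.12 ± 0.128 (SE, adjusted p = 3.48e-08). Retnla, a secreted relative of resistin made by macrophages and fat tissue, read 13993, 8371 and 9159 on the KO arrays and 3132, 3019 and 2954 on the KO+GH arrays and fell by 1.75 ± 0.181 (SE, adjusted p = 1.50e-05). Tigar, which lowers glycolytic flux, read 3976, 3429 and 3062 on the KO arrays and 972, 1007 and 995 on the KO+GH arrays at its brightest probe set, while its 3 probe sets ranged from -1.78 to 0.01. Ltc4s, an enzyme of leukotriene synthesis, fell by 1.70 ± 0.227 (SE, adjusted p = 9.83e-05), and Hdac9, a class II histone deacetylase, by 1.63 ± 0.256 (SE, adjusted p = 3.66e-04). That was the brighter of 2 Hdac9 probe sets, and the other differed by -0.10. Ighm, the heavy chain of immunoglobulin M, read 8152, 4165 and 16608 on the KO arrays and 2626, 2651 and 2743 on the KO+GH arrays. The KO arrays of Ighm varied widely, its 11 probe sets ranged from -1.62 to 0.58, and its call was lost with the mean of all probe sets. Hoxa7, a homeobox factor, fell by 1.88 ± 0.345 (SE, adjusted p = 0.00125), a call lost with the GH arrays averaged.

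Genes of contraction and energy supply showed small falls in the signal as deposited. Of 15 kept fast fibre genes, 11 fell and 1 rose, with a median of -0.41. Of 38 respiratory chain subunits, 19 fell and none rose, with a median of -0.28. Of 16 glycolysis genes, 8 fell and 1 rose, with a median of -0.31, and of 25 fatty acid oxidation genes, 11 fell and 1 rose, with a median of -0.26. None of these falls passed with the GH arrays averaged. These genes are among the brightest on the arrays, and the brightest genes shifted as a class. The 448 genes with a mean signal of at least 10000 had a median of -0.18, and 32.1% of them were called lower, whereas the 1711 genes below 100 had a median of 0.09. The highest signal on a KO+GH array was 46752 to 48399, against 55474 to 75681 on the KO arrays.

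Quantile normalization, which gives every array the same distribution, took the median of the fast fibre genes to -0.01 with 2 falls and 3 rises. It took that of the respiratory chain to -0.07 with 11 falls and 2 rises, and that of glycolysis to -0.06 with 3 falls and 2 rises. The fatty acid oxidation genes kept a median of -0.19 and 11 falls. These counts also moved with single arrays. Fast fibre genes that fell numbered 1 without KO replicate 3, 4 without KO+GH replicate 1 and 6 without KO+GH replicate 2. For the respiratory chain the count was 7 without KO+GH replicate 1 or 2 and 9 without KO+GH replicate 3 or KO replicate 3. Glycolysis had 4 falls without KO+GH replicate 1 or 2 and 5 without KO+GH replicate 3 or KO replicate 3, and fatty acid oxidation had 7 without KO+GH replicate 2. Tpm1, an alpha-tropomyosin, read 43998, 46035 and 59884 on the KO arrays and 32151, 33138 and 34938 on the KO+GH arrays, and its 4 probe sets ranged from -0.57 to 0.78. Casq1, the calcium buffer of the fast fibre store, read 35682, 37864 and 45355 on the KO arrays and 28881, 29706 and 29241 on the KO+GH arrays and lost its call without KO replicate 3. Myh2, the myosin of the oxidative fast fibres, read 29731, 23574 and 18844 on the KO arrays and 35419, 35552 and 35773 on the KO+GH arrays and differed by 0.59 ± 0.152 (SE, adjusted p = 0.0113), a call lost under median centring. Ppargc1b, a coactivator of mitochondrial genes, read 1869.6, 2280.1 and 1629 on the KO arrays and 1232, 1196 and 1311 on the KO+GH arrays and fell by 0.61 ± 0.105 (SE, adjusted p = 8.15e-04). Cpt1a, a fatty acid importer of mitochondria, fell by 0.70 ± 0.124 (SE, adjusted p = 9.05e-04), a call lost with the mean of its probe sets, and Pfkfb3, an activator of glycolysis, by 1.10 ± 0.233 (SE, adjusted p = 0.00505).

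**Figure D4:**
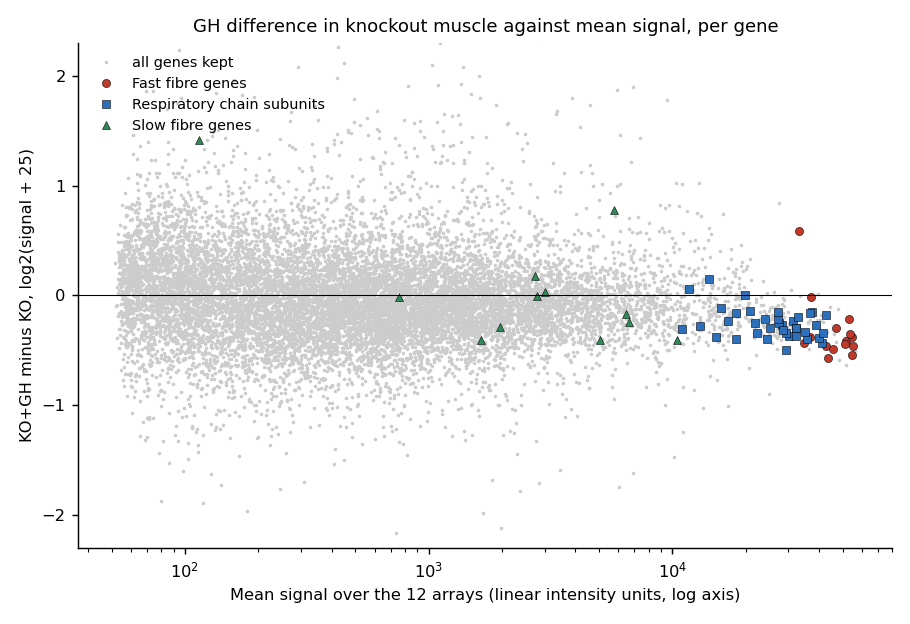
KO+GH minus KO difference of each gene, on the scale of log2(signal + 25), against its mean signal over the 12 arrays on a log axis. Grey points are all genes kept, of which 30 lie outside the plotted range of -2.3 to 2.3, and coloured marks are fast fibre, respiratory chain and slow fibre genes. The fast fibre and respiratory chain genes sit at the bright end, where the median of all genes is -0.18.

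Of 12 slow fibre genes kept, 1 rose and 1 fell, with a median of -0.09 in the knockout and of -0.06 after quantile normalization. In wild-type muscle 8 rose with a median of 1.004, and 1 of the 12 had an interaction that passed. Myh7 read 3575, 4337 and 4231 on the KO arrays and 3914, 4082 and 4023 on the KO+GH arrays, with overlapping groups and a difference of -0.01 ± 0.62 (SE, adjusted p = 0.993). In wild-type muscle the difference was 2.997 ± 0.62 (SE, adjusted p = 0.0104), and the interaction was -3.01 ± 0.877 (SE, adjusted p = 0.249). The Myh7 values of all 4 groups are given above. Myh7b, a relative of the slow myosin, rose by 1.41 ± 0.258 (SE, adjusted p = 0.00121). Of 18 myogenic and embryonic muscle genes, 5 rose and none fell, 1 of them (Ankrd1) with the GH arrays averaged. The count of rises was 2 without KO+GH replicate 3 and 3 without KO replicate 2 or 3 or KO+GH replicate 1 or 2. Myf6, a myogenic factor of mature fibres, read 5572, 5499 and 6268 on the KO arrays and 8376, 8564 and 9016 on the KO+GH arrays and rose by 0.58 ± 0.0748 (SE, adjusted p = 6.57e-05). Myod1, the founding myogenic factor, read 1599, 1617 and 1515 on the KO arrays and 2330.2, 2242 and 2326 on the KO+GH arrays, while it differed by -0.87 in wild-type muscle, with an interaction of 1.41 ± 0.247 (SE, adjusted p = 0.00961). The rise of Myod1 within the knockout lost its call without any 1 of the 6 arrays.

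Genes that arrest growth and genes that drive it both changed. Of 18 kept, 7 rose and 6 fell, and 5 rose and 2 fell with the GH arrays averaged. Gadd45a, a growth arrest and DNA damage protein that also rises in denervated muscle, read 834, 498 and 473 on the KO arrays and 3543, 3919.8 and 3317 on the KO+GH arrays and rose by 2.57 ± 0.162 (SE, adjusted p = 6.06e-08). Btg2, an antiproliferative factor, read 791, 1823 and 865 on the KO arrays and 9166, 9149 and 9383 on the KO+GH arrays and rose by 3.07 ± 0.236 (SE, adjusted p = 2.05e-06), against 0.93 in wild-type muscle and with an interaction of 2.13 ± 0.333 (SE, adjusted p = 0.00656). Myc read 169.8, 154 and 191 on the KO arrays and 507, 573 and 634 on the KO+GH arrays and rose by 1.60 ± 0.138 (SE, adjusted p = 1.39e-06). Cdkn2c, a cyclin-dependent kinase inhibitor, read 1892, 1821 and 1737 on the KO arrays and 919, 829.9 and 869.8 on the KO+GH arrays and fell by 1.04 ± 0.0851 (SE, adjusted p = 8.12e-07). Of 7 polyamine genes, 3 rose and 1 fell, none with the GH arrays averaged. Azin1, which protects ornithine decarboxylase from its inhibitor, read 1256, 1351 and 1092 on the KO arrays and 2348, 2286 and 2292 on the KO+GH arrays and rose by 0.90 ± 0.112 (SE, adjusted p = 5.22e-05), with an interaction of 1.09 ± 0.158 (SE, adjusted p = 0.00209).

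Among 15 kept targets of NRF2, the factor that answers oxidative stress, 6 rose and 3 fell, and 2 rose with the GH arrays averaged. In wild-type muscle 2 rose and 3 fell. Srxn1, which repairs oxidised peroxiredoxins, read 997, 1296 and 1594 on the KO arrays and 8530.3, 8107 and 8291 on the KO+GH arrays and rose by 2.68 ± 0.139 (SE, adjusted p = 1.04e-08), with an interaction of 2.21 ± 0.196 (SE, adjusted p = 1.65e-05). Txnrd1, a thioredoxin reductase, read 3196, 3757 and 2936 on the KO arrays and 6875, 7269 and 7236 on the KO+GH arrays and rose by 1.11 ± 0.0988 (SE, adjusted p = 1.84e-06), with an interaction of 0.81 ± 0.14 (SE, adjusted p = 0.00737). Osgin1, an oxidative stress growth inhibitor, read 597, 670.2 and 850.4 on the KO arrays and 1425, 1190.5 and 1367 on the KO+GH arrays, with an interaction of 1.24 ± 0.182 (SE, adjusted p = 0.00227). These 3 interactions were lost with the GH arrays averaged. Hmox1, which breaks down haem, rose by 1.40 ± 0.259 (SE, adjusted p = 0.00149).

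Of 17 kept clock genes, 5 rose and 3 fell, and 1 rose and 1 fell with the GH arrays averaged. Nr1d1, the clock repressor REV-ERB alpha, read 2973, 2622 and 2295 on the KO arrays and 562, 756 and 625 on the KO+GH arrays and fell by 1.98 ± 0.134 (SE, adjusted p = 9.51e-08). It fell by 1.10 ± 0.134 (SE, adjusted p = 5.46e-05) in wild-type muscle. Cry2, a clock repressor, read 487, 462 and 479 on the KO arrays and 968, 1005 and 771 on the KO+GH arrays, and Per2 read 232, 233 and 286 on the KO arrays and 665, 893 and 689 on the KO+GH arrays. Without any 1 of the KO+GH arrays or KO replicate 1, 3 clock genes rose, and without KO+GH replicate 1 or 2, 1 fell. The hour at which muscle was taken is not given in the labels.

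Counts in other lists were close to the shares over all genes. Of 20 ER stress and ATF4 genes, 3 rose and 2 fell. Slc7a5, a subunit of a large amino acid transporter, rose by 0.86 ± 0.187 (SE, adjusted p = 0.00387). Of 16 heat shock chaperones, 2 rose and 3 fell. Of 22 interferon responsive genes, 2 rose and 4 fell, and Usp18, which restrains interferon signalling, fell by 0.79 ± 0.134 (SE, adjusted p = 6.67e-04). Of 13 chemokines, 1 rose and 2 fell. Cxcl12, a chemokine that retains blood progenitors, read 2294, 2619 and 2425 on the KO arrays and 1340.0, 1273 and 1384 on the KO+GH arrays and fell by 0.86 ± 0.0936 (SE, adjusted p = 1.32e-05), but its 3 probe sets ranged from -0.86 to 0.06 and the call was lost with their mean. None of the 4 lists had more than 1 call with the GH arrays averaged.

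Markers of the other cells in muscle were read against the 8.93% of all genes that rose and the 15.4% that fell. Of 24 collagen and matrix genes, 7 fell and 1 rose, and 2 fell with the GH arrays averaged. Col15a1, a basement membrane collagen, read 1046, 1157 and 1078 on the KO arrays and 553, 488 and 562 on the KO+GH arrays and fell by 1.002 ± 0.101 (SE, adjusted p = 7.18e-06). Loxl1, which cross-links elastin, read 2269, 2021 and 1636 on the KO arrays and 868, 948 and 1009 on the KO+GH arrays and fell by 1.04 ± 0.128 (SE, adjusted p = 4.64e-05). The count moved from 4 without KO+GH replicate 2 or 3 to 11 without KO replicate 3. Of 9 fibroblast markers, 5 fell and none rose. Their summed signal was 17724 to 20091 on the KO arrays and 14371 to 14662 on the KO+GH arrays. Of 15 macrophage markers, 7 fell and 3 rose, with a summed signal of 17221 to 23775 on the KO arrays and 15316 to 15584 on the KO+GH arrays. Without KO replicate 1 or KO+GH replicate 2, 3 of them fell, and 4 fell without either of the other KO+GH arrays. With the GH arrays averaged, none of the fibroblast or macrophage markers fell, and 1 macrophage marker rose. Csf1r, the receptor that maintains macrophages, fell by 0.63 ± 0.118 (SE, adjusted p = 0.00135). Lgals3, a galectin of activated macrophages and injured muscle, read 466, 319 and 313 on the KO arrays and 1199, 1027 and 1186 on the KO+GH arrays and rose by 1.59 ± 0.172 (SE, adjusted p = 1.38e-05).

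Of 6 MHC class II genes kept, 2 fell. Cd74, the invariant chain, read 5637, 4849.8 and 5982 on the KO arrays and 1716, 1926 and 1757 on the KO+GH arrays and fell by 1.59 ± 0.115 (SE, adjusted p = 1.84e-07). Of 13 endothelial markers, 2 rose and 3 fell, near the shares over all genes. Flt1, a VEGF receptor, read 555, 801 and 534 on the KO arrays and 1708, 1614 and 1565 on the KO+GH arrays and rose by 1.36 ± 0.126 (SE, adjusted p = 2.91e-06), while Kdr, the main VEGF receptor, read 1134, 899 and 1111 on the KO arrays and 564, 592 and 482 on the KO+GH arrays and fell by 0.91 ± 0.127 (SE, adjusted p = 1.41e-04). Of 11 smooth muscle and pericyte markers, 7 rose and 3 fell. With the mean of all probe sets, 4 of them rose. Pdgfrb, a pericyte receptor, rose by 1.20 ± 0.172 (SE, adjusted p = 1.94e-04), with -0.05 to 1.20 over its 2 probe sets, and Lmod1, a leiomodin of smooth muscle, fell by 1.47 ± 0.281 (SE, adjusted p = 0.00169). Of 7 Schwann cell markers, 4 rose and none fell, and Mbp, a myelin protein, rose by 0.84 ± 0.0985 (SE, adjusted p = 3.10e-05), though its 8 probe sets ranged from -0.03 to 1.40. Mal, Pmp22 and Egr2, a relative of Egr1, were the other rises. The call of Pmp22 was lost in 8 of 20 alternative settings, among them without any 1 of the KO+GH arrays. On averaging the GH arrays, none of the endothelial or smooth muscle markers but Flt1 and 1 gene that fell passed, and 1 Schwann cell marker did. Lymphocyte, red cell, keratinocyte and hepatocyte markers had 1 call or none each among the 2 to 4 kept. The part of cell content in the results above was not tested.

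The response in the knockout resembled that in wild-type muscle in its overall order. In wild-type muscle 927 genes rose and 1489 fell with GH. Of the genes that rose in the knockout 48.4% also rose in wild type, and of those that rose in wild type 59.0% also rose in the knockout, 547 genes in all. Of the genes that fell, 936 were shared, 48.05% of those in the knockout and 62.9% of those in wild type. In 19 genes the calls were opposite. Across the 12654 genes the 2 differences had a Pearson r of 0.648, a description over genes that are not independent replicates, from arrays that share the same labelling difference between GH and no GH. The 2 comparisons have no array in common.

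A test of the difference itself called 79 genes with a higher GH response in the knockout (0.624%) and 39 with a lower one (0.308%). Of the 79, 70 were called higher within the knockout. Of the 39, 29 were called higher in wild-type muscle, 17 were called lower in the knockout and 20 were not called in the knockout. The interaction subtracts the wild-type difference from the knockout one. Selection on it therefore favours such calls, and these counts are not a separate result. Slc25a25, a mitochondrial ATP-magnesium carrier, read 3156, 3215 and 2583 on the KO arrays and 1940.1, 1704 and 1963 on the KO+GH arrays, against 1566 ± 102 in WT and 5529 ± 316 in WT+GH (mean ± SD, n = 3 each). It fell by 0.66 ± 0.0961 (SE, adjusted p = 1.90e-04) in the knockout and rose by 1.80 ± 0.0961 (SE, adjusted p = 1.95e-08) in wild type, with an interaction of -2.47 ± 0.136 (SE, adjusted p = 9.07e-08). Its 3 probe sets ranged from -0.66 to 0.81 in the knockout, and the fall there was lost with the mean of all probe sets. Aldh9a1, an aldehyde dehydrogenase, read 841, 747 and 607 on the KO arrays and 998, 844 and 1152 on the KO+GH arrays, with an interaction of -1.47 ± 0.239 (SE, adjusted p = 0.00546). Slc7a8, an amino acid transporter, rose in both genotypes, by 0.83 in the knockout and 2.21 in wild type. On averaging the GH arrays, 3 interactions were higher (Rrad, Egr1 and Nab2) and 1 lower (Slc25a25). With the mean of all probe sets of a gene, the interactions of Slc2a1, Azin1, Myod1 and Txnrd1 given above were lost. Without KO replicate 3 and WT replicate 1 together, an alternative added after seeing the data, 92 were lower.

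**Figure D5:**
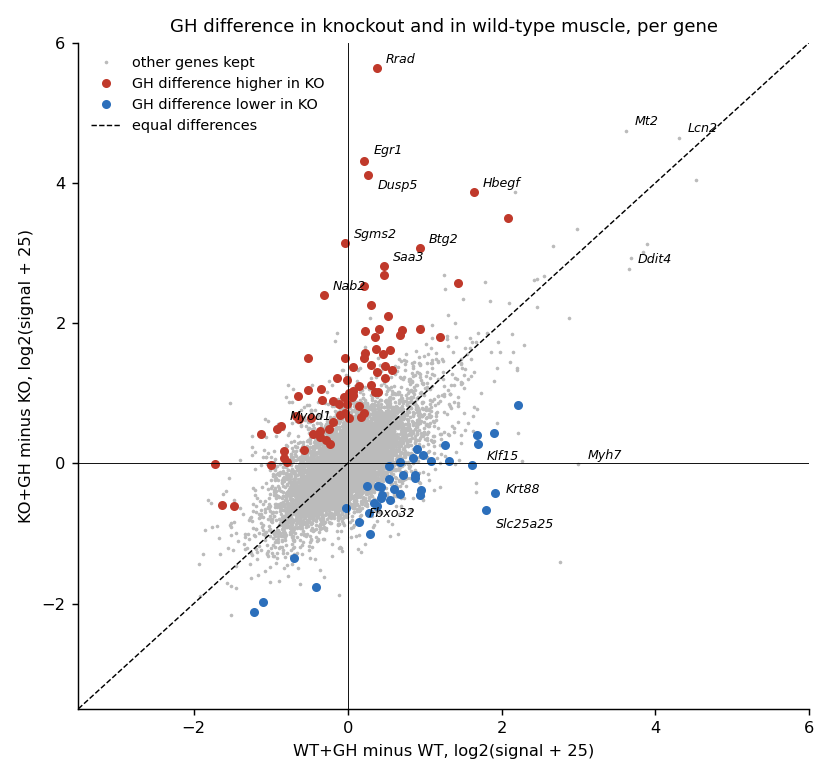
KO+GH minus KO difference (vertical) against WT+GH minus WT difference (horizontal) of each of 12654 genes, both on the scale of log2(signal + 25). Red points are the 79 genes and blue points the 39 genes called for a higher or lower GH difference in the knockout, and the dashed line marks equal differences. Rrad, Egr1, Dusp5, Sgms2 and Nab2 lie near 0 on the wild-type axis and high on the knockout axis, whereas Lcn2 lies near the dashed line. Mt2 is high on both axes and lies 1.13 above the line, an interaction that did not pass.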

How the data were processed

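Total RNA was labelled with biotin and each of the 12 samples was hybridized to its own 1-colour array. The deposited table holds MAS5 signal, a linear intensity, per the submitters' processing notes. No version or setting of MAS5 is given in the sources used here, and no scanner files or detection calls were used. The authors had scaled the deposited intensity values: a trimmed mean, leaving out 2% at either end, was 500 on every array. With 3 arrays per group, their number limits the precision.

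Groups follow the source names. Titles give each array its own animal number, and nothing says how the tissue was sampled beyond that, so p-values measure only the spread between these samples, which may be technical. Signals were taken as log2(signal + 25), 25 being the pooled 25th percentile. Left out were 64 control probe sets, 932 that name more than 1 gene and 9160 that name no gene. The remaining 34945 probe sets belong to 18193 genes (162 symbols kept as in the platform annotation). Each gene was represented by its brightest probe set, and a gene was kept if this mean exceeded the 40th percentile over probe sets, which 12654 did. limma 3.58.1 with statmod 1.5.0 in R 4.3.3 fitted 1 mean per group over all 12 arrays with a trended, robust empirical Bayes step and 8 residual degrees of freedom. Tests were 2-sided at a Benjamini-Hochberg adjusted p of 0.05, for KO+GH minus KO and for that difference minus WT+GH minus WT. All 45037 probe sets other than controls were fitted likewise without a filter. On simulated data over 12654 genes, the fit of GH in KO recovered 32% of 1.5-fold, 68% of 2-fold and 98% of 4-fold changes with 3 false calls. The simulated noise was independent and normal, with the same SD in every group for a gene, and held no labelling difference. The real groups differ in spread and in labelling, so these rates need not hold for the real arrays.

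Genes were named by rule: Stat5a, Stat5b, Igf1, Socs2, Cish, Myh7, Igfals and Ghr; the 15 largest rises and 15 largest falls with no overlap between groups; the 10 highest and 10 lowest interactions; and up to 4 called members per list in order of p. The 43 lists hold 739 genes, 685 of them with a probe set; a list's members, the lists and the comparison were chosen with earlier results of these data known. The alternatives were other constants, filters, scalings, probe set rules, empirical Bayes settings, array weights, the 6 knockout arrays alone and each array left out; those added after seeing the data were centring on the genes kept, GH arrays averaged, and 2 arrays left out together. Promoters came from RefSeq tables on GRCm38.p6.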

Additional observations from a re-analysis of the deposited data

Results flagged for a closer look

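Of the genes named by rule, 31 had a GH response that differed between the genotypes, by limma's interaction term at an adjusted p under 0.05. The values below are KO+GH minus KO less WT+GH minus WT, on the log2(signal + 25) scale. The naming rule itself took the highest and lowest interactions, so the 31 do not measure how often named genes differ. Over all 12654 genes kept, 79 interactions were higher in the knockout (0.624%) and 39 lower (0.308%).

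The GH response was higher in the knockout by 5.25 for Rrad, 4.10 for Egr1, 3.84 for Dusp5, 3.18 for Sgms2, 2.71 for Nab2, 2.34 for Saa3, 2.31 for Dusp2, 2.23 for Hbegf, 2.21 for Srxn1 and 2.13 for Btg2. It was also higher by 1.41 for Myod1, 1.41 for Ankrd1, 1.24 for Osgin1, 1.14 for Gadd45a, 1.10 for Socs2, 1.09 for Azin1, 1.06 for Slc2a1 and 0.81 for Txnrd1.

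The GH response was lower in the knockout by -2.47 for Slc25a25, -2.33 for Krt88, -1.64 for Apold1, -1.47 for Aldh9a1, -1.42 for Klf15, -1.39 for B330016D10Rik and -1.38 for Slc7a8. It was also lower by -1.35 for Rarres1, -1.33 for Ciart, -1.29 for Mss51, -0.99 for Fbxo32, -0.91 for Tmem45b and -0.88 for Nr1d1.

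With the GH arrays averaged to 1 per group, 27 of these 31 lost their call, the exceptions being Rrad, Egr1, Nab2 and Slc25a25. The interactions of Ciart, Mss51, Socs2, Nr1d1, Rarres1, Gadd45a, Slc7a8, Tmem45b, Krt88 and Apold1 also lost it when single arrays were left out, and their direction held under every alternative run. No group had the 4 samples that a test for an outlying sample needs.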

How the results depend on the processing

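No paired analysis was possible because nothing in the labels pairs an animal with GH to one without. Of the 166 named genes called in the knockout, between 0 and 19 lost their call under the alternatives other than averaging, which cost 101. Leaving out 1 KO or KO+GH array gave 774 to 1078 genes higher and 1299 to 1698 lower. With such an array left out, 223 to 261 genes were at least 2-fold higher and 116 to 180 at least 2-fold lower. Distinct pathway list members numbered 99 to 114 higher and 83 to 116 lower (117 and 131 with all arrays). Probe sets numbered 2203 to 3109 higher and 1628 to 2248 lower. These ranges do not cover the WT and WT+GH arrays: without WT replicate 1, 1288 genes were higher and 2334 lower. Leaving out 1 array of any group gave 59 to 90 interactions higher and 17 to 53 lower. Median centring gave 643 genes higher and 4173 lower, 298 at least 2-fold lower, 224 list members lower, 24 interactions lower, and 2013 probe sets higher and 5834 lower. A constant at the pooled median signal, 92, left 56 genes at least 2-fold lower. Centring on the genes kept left 86 list members lower. With the GH arrays averaged, 179 genes were higher and 100 lower, 135 and 62 of them at least 2-fold, with 43 list members higher and 10 lower and 3 interactions higher and 1 lower. Empirical Bayes without trend and robust gave 18 interactions lower and 1603 probe sets lower. Array weights gave 122 interactions higher and 92 lower, and leaving out WT replicate 1 and KO replicate 3 together also gave 92 lower. The mean of all probe sets of a gene turned the sign of Igfbp7 (0.053), Gabarapl2 (0.30), Psmd4 (0.21), Hadhb (0.22) and Cycs (0.020), and leaving out probe sets with _x_at and _s_at suffixes turned that of Dgat1 (0.087) and Notch3 (-0.15). The cause of these shifts was not tested, other than that averaging leaves 4 residual degrees of freedom in place of 8. Genes near the filter are dim, and the constant of 25 understates their changes.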
